A study of Drosophila melanogaster with 18 samples.

Results

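The reporters described here are the barcoded transgenes integrated on the right arm of chromosome 3 (3R) of Drosophila Kc167 cells, an embryonic cell line. They were chosen by their mapped position alone, as those on chr3R beyond position 1500000 of genome build dm3. This gave 166 of the 749 reporters (22.2%), and 10 more lay on chr3R at or below that position. The other large arms held 540 reporters, with 131 on 2L, 112 on 2R, 150 on 3L and 147 on X. All cells came from 1 pool of Kc167 cells that carried the reporter library, and each reporter had a copper-inducible metallothionein promoter, a GFP gene and 5 sites that the yeast activator GAL4 recognises. Plasmids transiently transfected into the pool expressed ACF1 joined to GAL4's DNA-binding domain (GAL4-ACF1), ACF1 lacking that domain (ACF1), HP1a joined to it (GAL4-HP1), or the domain by itself (GAL4). In all 4 conditions 0.5 mM copper sulfate induced the reporters and cells positive for mCherry were sorted at day 2. Each condition had 2 replicates, and every replicate gave a cDNA library, which counts barcodes in reporter mRNA, and a gDNA library, which counts them in genomic DNA. The series text names the replicates technical and the study names them biological, so p-values measure the spread between these libraries only. Each value is an average over many cells, so fewer expressing cells and less RNA per cell cannot be told apart. The fusion proteins came from transient plasmids on top of the cells' own ACF1 and HP1a.

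A reporter inserted at random comes under the influence of the chromatin around it, so that identical transgenes at different sites can differ widely in output. A GAL4 fusion binds the sites in each reporter and so brings its partner to all of them. ACF1 is the signature subunit of the nucleosome remodelers ACF and CHRAC, which slide and space nucleosomes with the ATPase ISWI. HP1a binds methylated histone H3 in pericentric heterochromatin and is a known repressor when tethered. On chr3R low coordinates are near the centromere, and the arm runs from there through euchromatin to the telomere.

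Each reporter is known in the libraries only by its barcode of 21 nt. The barcodes are printed 5′ to 3′ for the members that the results turn on. None of the letters is capitalised, since no base within a barcode is singled out. The first 10 passed the count test for a lower level in GAL4-ACF1 than in GAL4, the next 4 had no cDNA count in either GAL4-ACF1 library in spite of clear GAL4 counts, and the last 5 had the highest GAL4 expression.
chr3R:13718423, plus orientation: agtactggatgtggggggttc
chr3R:21691458, minus orientation: ggatcgcttccctttcacacc
chr3R:5278733, minus orientation: ttcttctttaagaattcggag
chr3R:24818880, plus orientation: gtagatgcgcgctgagctgga
chr3R:22313287, minus orientation: tgaatgggtgttgggcgaaga
chr3R:2137932, plus orientation: actgttttgctgtgtttcctt
chr3R:3113173, minus orientation: ttaaggattacatagggtcca
chr3R:10904925, minus orientation: taatggccgttttagaggcgt
chr3R:10571607, minus orientation: gctccgctcagtgaacagatt
chr3R:17465644, minus orientation: cttgtgcccggttgatactgg
chr3R:21356507, minus orientation: tgtgctgttttggctttattc
chr3R:5122622, minus orientation: gcgcacgatccggtccaaggt
chr3R:6464243, minus orientation: gcccggcagcctgggtcttaa
chr3R:4996941, plus orientation: ttgacctggggccgcggtgtg
chr3R:4644683, plus orientation: tgggtaagggcaactgaactt
chr3R:25135069, minus orientation: taacatcgggtttaatggcgc
chr3R:18412244, plus orientation: gggtgcagaaacaacttccag
chr3R:10394664, plus orientation: atattcggcgaagttgatgtc
chr3R:18454653, minus orientation: ctttgtcccctgatagggtac
All 749 barcodes were distinct. No barcode of a 3R member came closer than 6 mismatches to that of any other reporter. The GC content of the members' barcodes ran between 23.8% and 71.4% with a median of 47.6%, the same median as on the other large arms. Across 165 members above 0 in GAL4, it had a Spearman's rho of −0.034 with log2 expression.

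The members covered the arm from 1610727 to 27668362. The median distance between neighbours was 112 kb, and the widest stretch without a member was 752 kb, between 17660186 and 18412244. The plus orientation was found in 68 members and the minus orientation in 98. No gene is named for these sites, because the annotation at hand belongs to a later genome release and positions were not converted.

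Depth was high in genomic DNA and uneven in cDNA. The median member had 1224 to 2153 gDNA counts, and no member was at 0 in any of the 8 gDNA libraries. In cDNA the median member had 168 and 272 counts in GAL4-ACF1 (replicates 1 and 2), 452 and 496 in ACF1, 430 and 422 in GAL4-HP1, and 891 and 726 in GAL4. The members held 26.8% to 27.5% of the gDNA counts of a library. Their share of the cDNA counts was 33.0% and 32.0% in GAL4-ACF1, 32.6% and 29.2% in ACF1, 41.2% and 42.4% in GAL4-HP1, and 32.9% and 30.8% in GAL4. The reporter at 4644683 was the strongest member in all 8 cDNA libraries and supplied 41.7% to 66.6% of the members' counts. Without it the members' share was 18.4% and 17.5% in GAL4-ACF1, 20.1% and 18.1% in ACF1, 20.9% and 19.7% in GAL4-HP1, and 22.2% and 20.3% in GAL4. The larger cDNA share of the arm in GAL4-HP1 was therefore that of 1 reporter.

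The deposited expression of a reporter is its cDNA count over its gDNA count, multiplied by 1 factor per library that carries the authors' spike-in scaling. In GAL4, the control, expression over the 166 members had a median of 35.1, with 35.1 in replicate 1 and 31.1 in replicate 2. The quartiles lay at 9.58 and 109. Among the 161 members above 0 in both GAL4 libraries the highest mean was 1978 times the lowest. The strongest member, 4644683, stood at 2799 and 2785. The next, 25135069, stood at 1369 and 707. The member at 18412244 had 537 and 910, that at 10394664 had 378 and 1031, and that at 18454653 had 659 and 721. Only the first of these stood clear of the others in both replicates, since the replicate values of the other 4 overlapped.

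At the low end, the member at 2688139 had 2.37 and 0.452 in GAL4. The members at 14368176 (1.40 and 1.54), 21249658 (1.06 and 1.91), 6112443 (2.07 and 1.24) and 19263315 (2.91 and 0.484) were of the same order, from 9 to 103 cDNA counts a library. Their order among themselves was not resolved, since all 5 ranges overlapped. Over the 116 members above 0 in every cDNA library, log2 expression in the GAL4 replicates had a Pearson's r of 0.871 and the SD of the difference between replicates was 1.03. In GAL4-ACF1 these values were 0.830 and 1.75, in ACF1 0.856 and 1.39, and in GAL4-HP1 0.847 and 1.37. These correlations run across reporters that share libraries.

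The typical reporter on 3R was lower with tethered ACF1. Median expression over the 166 members was 10.7 and 11.8 in the GAL4-ACF1 libraries, against 35.1 and 31.1 in the GAL4 libraries. Of the members, 103 (62.0%) had both GAL4-ACF1 values below both GAL4 values, and 8 (4.82%) had both above. Over all 749 reporters these shares were 60.3% and 3.74%, so the members stood near the background. A fold change needs a value above 0 in every condition, which 147 of the 166 members had. Their median change, GAL4-ACF1 over GAL4, was −1.30 on the log2 scale, and 127 of them were lower (86.4%, against 84.9% of all reporters). Replicate 1 alone gave −1.55 over 127 members and replicate 2 gave −1.20 over 139 (mean −1.38 ± 0.24 SD, n = 2). A member at 0 in a library has no change in that replicate, so the replicates cover different members. Over all 642 reporters that passed, the median was −1.44. Since this filter leaves out members at 0, the median was also taken over the 165 members above 0 in GAL4 with zeros ranked lowest, and was −1.66. Of the 147 members, 52 were at least 4-fold lower, a count that was not made over all reporters. With 2 libraries against 2 an exact permutation test cannot go below p = 0.333, so the medians are given without a p. The size of this decrease depended on the scaling. The fitted median over the members was −1.22 with column totals, −0.29 with TMM factors and −0.09 with median-of-ratios size factors, both of which centre the bulk of the reporters.

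Members without any cDNA count were more frequent in GAL4-ACF1. In replicate 1, 38 of 166 were at 0 (22.9%, 95% Wilson interval 17.2 to 29.9) in GAL4-ACF1, against 3 (1.81%, 0.617 to 5.18) in GAL4. In replicate 2, 22 (13.3%, 8.92 to 19.25) were at 0 in GAL4-ACF1, again against 3 in GAL4. These intervals cover counting error only. All cDNA totals were between 2616438 and 4181903 counts, and GAL4-ACF1 replicate 1, which had the most zeros, was the shallowest, and the part of depth in the zeros was not tested. On the other large arms the shares at 0 were 23.0% and 16.1% in GAL4-ACF1, against 1.48% and 3.15% in GAL4. Both GAL4-ACF1 libraries were at 0 for 14 members (8.43%, against 10.2% on the other large arms). The 14 were weak already in GAL4, with a median expression of 2.55, against 39.2 for the other members. For ACF1 4 members were at 0 in both libraries, for GAL4-HP1 3 and for GAL4 1.

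Only 4 of the 14 had 50 or more counts in each GAL4 library. The member at 21356507 had 0 and 0 cDNA counts in GAL4-ACF1, 56 and 45 in ACF1, 0 and 1 in GAL4-HP1, and 147 and 173 in GAL4. At a floor of 3 counts over both GAL4-ACF1 libraries its expression was at least 109-fold lower than in GAL4. It was also nearly silent in GAL4-HP1, where 1 count gave a ratio 410-fold below GAL4 (counting interval 73.6 to 16190). The member at 6464243 had no count in GAL4-ACF1, 29 and 52 in ACF1, 42 and 131 in GAL4-HP1, and 73 and 251 in GAL4, and was at least 167.5-fold lower in GAL4-ACF1 than in GAL4. It thus kept counts in both libraries of every condition other than GAL4-ACF1. The member at 5122622 had 22 and 0 counts in ACF1, 0 and 85 in GAL4-HP1 and 98 and 123 in GAL4, so that a replicate was also at 0 in each of the other tethering and ACF1 conditions. Its expression in GAL4-ACF1 was at least 89.7-fold lower than in GAL4. For the member at 4996941, with 0 and 42 counts in ACF1, 25 and 17 in GAL4-HP1 and 112 and 55 in GAL4, this bound was 22.2-fold.

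Single members were tested on the counts, as the cDNA change corrected for the gDNA change, with edgeR's quasi-likelihood test and Benjamini-Hochberg adjustment over all 642 reporters. Library sizes in this test were column totals, so a call is a change relative to the rest of the library. For GAL4-ACF1 over GAL4, 10 of 147 members (6.80%) passed an adjusted p of 0.05 and all 10 were lower. Of all reporters tested, 6.39% were called lower and 0.156% higher, so the share on 3R was near the background. At an unadjusted p under 0.05 there were 42 of 147 members, against 169 of all 642 reporters (26.3%). DESeq2 on the same library sizes called 29 (19.7%, against 17.4% of all reporters), with 28 lower and 1 higher. The main test did not pair the cDNA and gDNA libraries of a replicate. With cDNA and gDNA of the same culture as a block, only 2 members passed (1.36%, against 1.25% of all reporters). They were those at 13718423 and 21691458. The directions depended on the scaling. With TMM factors 4 members were called lower and 4 higher (5.44% in all, against 3.89% of all reporters), and with median-of-ratios size factors 4 lower and 8 higher (8.16%, against 5.92%). These scalings raised the median fitted change of all reporters to −0.29 and −0.11, against −1.23 with column totals. Calls also depended on the GAL4 libraries. Without GAL4 replicate 1 there was 1 call (0.156% of all reporters) and without GAL4 replicate 2 there were 2 (0.312%), whereas without GAL4-ACF1 replicate 2 there were 27 (18.4%, against 15.6% of all reporters).

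The call with the smallest p was at 13718423, 145th of the members in GAL4 expression. It had 17 and 17 cDNA counts in GAL4-ACF1, 420 and 261 in ACF1, 463 and 271 in GAL4-HP1, and 2082 and 1484 in GAL4. Its gDNA was among the best covered, with 17957 to 34614 counts. Every GAL4-ACF1 value lay far below those of the other conditions, and expression was 0.0503 and 0.0403 in GAL4-ACF1 against 4.16 and 3.84 in GAL4. The fit gave a log2 change of −6.27 ± 0.53 (SE, edgeR adjusted p = 3.67e-05), and the member remained called in all 18 alternatives. It was also the only member called for GAL4-ACF1 over ACF1, with expression of 1.54 and 0.590 in ACF1 and a fitted change of −4.00 ± 0.51 (SE, edgeR adjusted p = 0.00312). This made 1 of 147 members, with 0.156% of all reporters called lower. That call was lost in 3 of 18 alternatives, which were cDNA libraries alone, the block of cDNA and gDNA of the same culture, and leaving out ACF1 replicate 1.

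A first group of calls rested on reporters with few or no reads left in GAL4-ACF1. At 24818880 there were 2 and 0 cDNA counts in GAL4-ACF1, 0 and 1 in ACF1, 31 and 30 in GAL4-HP1, and 182 and 146 in GAL4. Expression was 141-fold lower in GAL4-ACF1 than in GAL4 (counting interval 39.1 to 1166, edgeR adjusted p = 0.0111) and 253-fold lower in ACF1 than in GAL4 (45.4 to 9997, edgeR adjusted p = 0.0307). This member therefore fell to the same few reads with and without the DNA-binding domain. At 3113173 the same held, with 0 and 1 counts in GAL4-ACF1, 0 and 1 in ACF1, 39 and 17 in GAL4-HP1, and 290 and 44 in GAL4. It was 272-fold lower in GAL4-ACF1 (48.9 to 10750, edgeR adjusted p = 0.0252), but the ACF1 decrease was not called. The member at 2137932 differed, since ACF1 alone left it near the control. It had 0 and 1 counts in GAL4-ACF1, 90 and 102 in ACF1, 54 and 766 in GAL4-HP1, and 146 and 128 in GAL4, a 210-fold decrease in GAL4-ACF1 (37.8 to 8308, edgeR adjusted p = 0.0190). At 22313287 the counts were 0 and 10 in GAL4-ACF1, 68 and 121 in ACF1, 84 and 217 in GAL4-HP1, and 440 and 319 in GAL4 (fitted log2 fold change −5.42 ± 1.05 SE, edgeR adjusted p = 0.0111). None of these 4 decreases in GAL4-ACF1 was called with cDNA libraries alone. The same held with cDNA and gDNA of the same culture as a block. The call at 3113173 was also lost with TMM factors, with median-of-ratios size factors and with the replicate number as a block. All 4 of these calls were lost without GAL4 replicate 1 and also without GAL4 replicate 2.

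The remaining 5 calls were decreases of reporters that kept 104 or more cDNA reads in each GAL4-ACF1 library. At 21691458 expression was 13.7 and 11.9 in GAL4-ACF1, 54.0 and 34.8 in ACF1, 23.5 and 12.2 in GAL4-HP1, and 77.5 and 41.3 in GAL4 (fitted log2 fold change −1.92 ± 0.29 SE, edgeR adjusted p = 0.00315). At 5278733 it was 9.16 and 10.7 in GAL4-ACF1, 15.1 and 21.6 in ACF1, 19.3 and 11.5 in GAL4-HP1, and 37.8 and 53.5 in GAL4 (−1.99 ± 0.37 SE, edgeR adjusted p = 0.0108). At 5278733 both ACF1 and both GAL4-HP1 values lay between those in GAL4-ACF1 and GAL4. At 21691458 GAL4-HP1 replicate 2 was within the GAL4-ACF1 range, and ACF1 replicate 1 was above the lower GAL4 value. At 10904925 expression was 4.24 and 6.52 in GAL4-ACF1, 34.2 and 52.3 in ACF1, 13.1 and 7.57 in GAL4-HP1, and 70.2 and 44.5 in GAL4 (−3.10 ± 0.78 SE, edgeR adjusted p = 0.0356). The calls at 21691458, 5278733 and 10904925 were lost in 3, 6 and 11 of 18 alternatives, and each was lost with both TMM and median-of-ratios factors and without GAL4 replicate 1. Those at 5278733 and 10904925 were also lost without GAL4 replicate 2, and that at 10904925 without any 1 of GAL4-ACF1 replicate 1 and the ACF1 and GAL4-HP1 replicates.

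At 10571607 expression was 33.4 and 30.7 in GAL4-ACF1, 81.3 and 58.1 in ACF1, 38.2 and 17.2 in GAL4-HP1, and 81.3 and 76.2 in GAL4. At 17465644 it was 51.8 and 55.5 in GAL4-ACF1, 134 and 108 in ACF1, 37.8 and 28.2 in GAL4-HP1, and 163 and 131 in GAL4. These were the 2 smallest called decreases, with fitted log2 fold changes of −1.10 ± 0.28 and −1.26 ± 0.32 (SE, edgeR adjusted p = 0.0379 for both). Both were close to the median of all reporters, and they lost the call in 11 and 13 of 18 alternatives. With median-of-ratios size factors the change at 10571607 was 0.043, so its direction turned. The GAL4-ACF1 and GAL4 ranges did not overlap for any of these 5 members on the deposited scale.

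At least 50 counts in every GAL4-ACF1 and GAL4 library were found in 97 members, which leaves out those nearly silent in GAL4-ACF1. Of these 97, 10 were above GAL4 in both replicates in GAL4-ACF1, a count that was not made over all reporters. The 3 with the largest change, chosen for it, are given as a description. At 14553037 expression was 74.4 and 12.7 in GAL4-ACF1, against 13.7 and 9.80 in GAL4, so the replicates in GAL4-ACF1 disagreed widely. At 15725714 it was 499.5 and 594.5 in GAL4-ACF1, 224 and 787 in ACF1, 125 and 86.8 in GAL4-HP1, and 221 and 288.5 in GAL4. At 12148151 it was 295 and 196 in GAL4-ACF1, 120 and 113 in ACF1, 71.7 and 48.9 in GAL4-HP1, and 139 and 110 in GAL4. In the last 2 both GAL4-ACF1 values exceeded both GAL4 values, while both GAL4-HP1 values were below them. None of the 3 passed the test (edgeR adjusted p = 0.299, 0.240 and 0.138).

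With ACF1 lacking the DNA-binding domain the typical 3R reporter was closer to GAL4. Median expression was 28.1 and 19.3 in ACF1, against 35.1 and 31.1 in GAL4. The 147 members had a median log2 change of −0.35 (all 642 reporters, −0.40), and 100 of them were lower (68.0%, against 66.2% of all reporters). The replicates alone gave −0.20 (140 members) and −0.44 (144 members), with a mean of −0.32 ± 0.17 (SD, n = 2). Over the 165 members above 0 in GAL4 the median was −0.42. Both ACF1 values were below both GAL4 values in 62 members (37.3%, against 33.9% of all reporters) and above them in 13 (7.83%, against 9.48%). The count test called 1 member, the one at 24818880 described above, as lower, with 0.467% of all reporters called lower. At an unadjusted p under 0.05 there were 13 of 147 members, against 64 of all 642 reporters (9.97%). DESeq2 called 4 members (2.72%, against 2.65%). It gave no adjusted p to 187 of the 642 reporters in this comparison, and these shares count them as not called. The fitted median over the members was −0.57 with column totals and −0.04 with TMM factors, and with median-of-ratios size factors it turned to 0.03. The call at 24818880 was lost in 11 of 17 alternatives, among them each alternative that left out a library of ACF1, GAL4-HP1 or GAL4.

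On the deposited scale nearly all members were lower with tethered HP1a. The GAL4-HP1 libraries had medians of 15.2 and 6.69, whereas the GAL4 libraries had 35.1 and 31.1. Of 147 members 138 were lower (93.9%, against 90.5% of all reporters). The median log2 change of the 147 was −1.45 (all reporters, −1.47). The replicates alone gave −1.14 (142 members) and −2.05 (144 members), with a mean of −1.59 ± 0.65 (SD, n = 2). This rests on the authors' scaling. Scaled to library totals the median was −0.65, and the fitted median was −0.67 with column totals, 0.01 with TMM factors and 0.001 with median-of-ratios size factors. Both GAL4-HP1 values were below both GAL4 values in 111 of 166 members (66.9%, against 61.9% of all reporters) and in 0 were both above (1.2% of all reporters). At 18454653, the fifth strongest member, expression stood at 213 and 82.8 in GAL4-HP1, 480 and 325 in GAL4-ACF1 and 659 and 721 in GAL4. At 10394664 it was 219 and 216.5 in GAL4-HP1, 581.5 and 738 in GAL4-ACF1, and 378 and 1031 in GAL4, so that only GAL4-HP1 was below both control values. At 25135069 it was 545 and 365 in GAL4-HP1, 891 and 560 in GAL4-ACF1, and 1369 and 707 in GAL4.

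The strongest member, 4644683, did not follow them. Its expression was 3854 and 2680 in GAL4-HP1, 3225 and 4207 in GAL4-ACF1, 4570 and 2705 in ACF1, and 2799 and 2785 in GAL4. Both GAL4-ACF1 values lay above both GAL4 values, while those of ACF1 and GAL4-HP1 spread to either side. Relative to column totals this was the 1 member called for GAL4-HP1 over GAL4, as higher, with 0.156% of all reporters called higher and 0.156% lower. The fit gave a log2 change of 1.04 ± 0.18 (SE, edgeR adjusted p = 0.0324), and with library sizes that follow the authors' scaling it was 0.23 and was not called. The member took 25.6% and 28.2% of all cDNA counts in GAL4-HP1, against 13.7% and 13.2% in GAL4. The call was lost in 7 of 18 alternatives, including without either replicate of GAL4-HP1 and of GAL4. Unadjusted, 18 of 147 members passed for GAL4-HP1, against 61 of all 642 reporters (9.5%). DESeq2 called 9 members (6.12%, against 2.65%), 8 of them lower and 1 higher. Over all reporters it called 15 lower and 2 higher.

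Set directly against each other on the deposited scale, tethered ACF1 gave lower values than untethered ACF1. Over the 147 members, GAL4-ACF1 over ACF1 had a median log2 change of −0.93 (replicates −0.83 and −0.55), and 114 were lower (77.6%, against 79.1% of all reporters). The fitted median was −0.42 with column totals and −0.05 with TMM factors, and it turned to 0.07 with median-of-ratios size factors. Both GAL4-ACF1 values were below both ACF1 values in 69 of 166 members (41.6%, against 43.1% of all reporters) and above them in 10 (6.02%, against 3.87%). At an unadjusted p under 0.05 there were 17 of 147 members, against 69 of all 642 reporters (10.7%). DESeq2 called 8 (5.44%, against 3.89%), and edgeR without GAL4-ACF1 replicate 2 called 11 (7.48%, against 6.85%). The comparison of GAL4-ACF1 over GAL4-HP1 had no settled direction, with a median of 0.21 and replicates of −0.14 and 0.81. Here both values of GAL4-ACF1 were below both of GAL4-HP1 in 29 members (17.5%, against 18.2% of all reporters) and above in 33 (19.9%, against 19.8%). The comparisons with GAL4 all use the same control libraries.

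The decrease in GAL4-ACF1 varied with the strength of the reporter. The 147 members were ranked by GAL4 expression and split into 4 groups of 36 or 37. From weak to strong, GAL4-ACF1 over GAL4 had median log2 changes of −2.63, −1.94, −1.04 and −0.52. In replicate 1 they were −2.71, −1.80, −1.21 and −0.43, and in replicate 2 −1.90, −1.80, −1.003 and −0.65, so the order held in each. When all members above 0 in GAL4 entered, in groups of 41 or 42 with zeros ranked lowest, the 4 medians were −3.74, −2.44, −1.10 and −0.55, and 12 of the 13 members at 0 in both GAL4-ACF1 libraries lay in the weakest group. For ACF1 the medians were −0.96, −1.01, −0.18 and −0.19. For GAL4-HP1 they were −1.45, −1.67, −1.34 and −1.25, a range much narrower than that of GAL4-ACF1. Within replicate 1 the GAL4-HP1 decrease also shrank stepwise from weak to strong, starting at −1.43, passing −1.34 and −0.97, and ending at −0.84. Replicate 2 did likewise, with −2.16, −2.15, −2.03 and −1.70. Untethered ACF1 went from −0.79 through −0.59 and −0.27 up to 0.13 in replicate 1. Its replicate 2 gave −1.42, −0.695, −0.16 and −0.19.

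Across the 147 members the log2 fold change of GAL4-ACF1 had a Spearman's rho of 0.459 and a Pearson's r of 0.428 with log2 expression in GAL4. The change became less negative by 0.353 log2 units for each log2 unit of expression. Without the 2 members farthest from the median expression r was 0.441. Expression and fold change share the GAL4 value here. When replicate 1 gave the expression and replicate 2 the change, and then the reverse, rho was 0.403 (138 members) and 0.445 (126 members). On the other large arms rho was 0.284 and the slope 0.190, and by arm rho was 0.282 on 2L, 0.307 on 2R, 0.337 on 3L and 0.166 on X. Within single replicates rho on 3R was 0.241 and 0.287, against 0.203 and 0.084 on the other large arms. For ACF1 rho on 3R was 0.234 and for GAL4-HP1 0.093. Crossing the replicates in the same way raised these to 0.294 and 0.301 (ACF1), or 0.160 and 0.266 (GAL4-HP1). The crossed GAL4-ACF1 values over the other large arms were 0.261 and 0.385, closer to 3R in the second order. By arm they were 0.2485 and 0.3375 on 2L, 0.297 and 0.438 on 2R, 0.335 and 0.410 on 3L, 0.163 and 0.308 on X. All of these are descriptions across reporters that share libraries, and the difference between arms was not tested.

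Along the arm neither expression nor its change showed a steady trend from the proximal to the distal end. Spearman's rho with position was −0.004 for log2 expression in GAL4 (165 members), 0.044 for the fold change of GAL4-ACF1, −0.051 for that of ACF1 and −0.124 for that of GAL4-HP1 (147 members each). By window, the members numbered 26 from 1.5 to 5 Mb, 27 from 5 to 10 Mb, 31 from 10 to 15 Mb, 30 from 15 to 20 Mb, 35 from 20 to 25 Mb, and 17 from 25 to 28 Mb. Median GAL4 expression in these windows was 20.0, 39.4, 57.3, 57.1, 25.0 and 30.8. The stretch from 10 to 20 Mb was the highest in both replicates, with 63.7 and 77.8 in replicate 1 and 44.5 and 52.8 in replicate 2. Within every window the spread was far larger than these steps. From 1.5 to 5 Mb, for instance, GAL4 expression ran from 1.41 to 2792, with quartiles at 13.3 and 42.0.

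In the same windows GAL4-ACF1 over GAL4 had median log2 changes of −1.81, −1.99, −0.51, −1.45, −1.12 and −1.78. Replicate 1 alone gave −2.01, −1.81, −0.36, −0.71, −1.37 and −2.05. Replicate 2 alone gave −1.37, −1.31, −1.17, −1.31, −0.99 and −1.07. The smaller decrease from 10 to 15 Mb was therefore a feature of replicate 1, and windows were nearly level in replicate 2. The median for ACF1 was −0.35, −0.96, −0.16, −0.43, −0.13 and −0.79. For GAL4-HP1 it was −1.07, −1.27, −1.45, −1.97, −1.34 and −1.65, negative in every window in both replicates. Members lower in GAL4-ACF1 numbered 20 of 23, 20 of 22, 22 of 28, 23 of 28, 27 of 30 and 15 of 16, so the decrease was spread over the whole arm. The last window holds under 20 members.

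Neighbouring reporters differed less than distant ones. For pairs of members up to 20 kb apart the median absolute difference of log2 GAL4 expression was 1.47 (21 pairs), against 1.71 for over 20 to 100 kb (80 pairs), 2.25 for over 100 kb to 1 Mb (884 pairs), 2.42 for over 1 to 5 Mb and 2.33 beyond. For the log2 fold change of GAL4-ACF1 the values were 0.88 (15 pairs), 1.46, 1.52, 1.61 and 1.63. The same reporter enters several pairs, so these are descriptions with no test.

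The 3 closest pairs differed among themselves. At 11107115 (plus) and 11108369 (minus) expression in GAL4-ACF1 was 37.8 and 215 for the first and 60.1 and 119 for the second, so that replicates differed more than neighbours. In ACF1 it was 143 and 834 for the first and 99 and 560 for the second, against 122 and 248.5 and 123.5 and 89.6 in GAL4. Both stood highest in ACF1 replicate 2, where they had only 115 and 209 gDNA counts. At 5469065 and 5470540, both minus, expression in GAL4-ACF1 was 14.2 and 39.4 for the first and 4.35 and 70.1 for the second, against 144 and 109 and 81.2 and 66.3 in GAL4. The first was below the control in both replicates and the second in replicate 1 only. At 21136589 and 21141370, both plus, it was 10.5 and 16.8 for the first and 15.6 and 21.2 for the second in GAL4-ACF1, against 27.2 and 15.9 and 55.1 and 27.4 in GAL4. None of these 6 members passed the test for GAL4-ACF1 over GAL4.

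Plus and minus members differed little in GAL4 expression, with a median of 35.7 for plus (36.6 and 33.5 in the replicates) and 34.7 for minus members (35.0 and 30.4). For GAL4-ACF1 over GAL4 the median log2 change was −1.25 for plus (replicates −1.37 and −1.13) and −1.45 for minus members (−1.56 and −1.28). For GAL4-HP1 it was −1.185 for plus (−0.71 and −1.72) and −1.535 for minus members (−1.35 and −2.08), lower for minus in both replicates. For ACF1 it was −0.22 (0.12 and −0.56) and −0.40 (−0.31 and −0.42), and the order changed between replicates. These differences were not tested. At the proximal limit, the members just inside were at 1610727, with 131.8 and 305 in GAL4, at 1672956, with 43.0 and 24.3, and at 1813463, with 0 and 10.3. Just outside were the reporters at 1035381, with 0.713 and 1.502 in GAL4, at 904236, with 48.3 and 10.9, and at 610144, with 83.6 and 54.9. Both sides of the limit held weak and strong reporters.

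Set against the other large arms, 3R was above 2L and X in GAL4 expression and was not ordered against 3L and 2R. Median expression over the members differed from that over the 540 reporters of the other large arms by 0.45 and 0.59 log2 units in the GAL4-ACF1 libraries, 0.37 and 0.50 in ACF1, 0.35 and −0.16 in GAL4-HP1, and 0.33 and 0.36 in GAL4. In the means of both GAL4 replicates the medians were 35.1 on 3R and 29.3 on the other large arms, a difference of 0.26 log2 units. The log2 of the GAL4 median was 5.23 on 3L, 5.20 on 2R, 5.13 on 3R, 4.66 on X and 4.30 on 2L. The difference of 3R from 2L was 0.83 (0.64 and 0.82 in the replicates) and that from X was 0.47 (0.35 and 0.71). The differences from 3L (−0.01 and 0.08) and from 2R (0.10 and −0.19) changed sign between replicates, so these 3 arms were not ordered. Leaving out 2L, chosen after seeing the data, gave a difference of 0.042 from the other arms, and without division by gDNA it was 0.074.

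The changes on 3R were close to those on the other large arms. For GAL4-ACF1 over GAL4 the medians were −1.30 on 3R and −1.45 on the other large arms, and the difference of 0.16 took opposite signs in the replicates, with −0.19 and 0.07. For ACF1 the medians were −0.35 and −0.42 (difference 0.07, with 0.02 and 0.19). For GAL4-HP1 they were −1.45 and −1.46 (difference 0.02, with 0.06 and −0.20). By arm, the median for GAL4-ACF1 was −1.03 on 2R, −1.30 on 3R, −1.34 on 3L, −1.69 on 2L and −1.71 on X. The decrease on 3R was larger than on 2R in both replicates (differences of −0.43 and −0.35) and smaller than on 2L in both (0.17 and 0.18). Relative to X (−0.18 and 0.28) and 3L (−0.32 and 0.07) the sign differed between replicates.

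The difference between 3R and the other large arms in GAL4-ACF1 (0.45 and 0.59 in the replicates) was above that in GAL4 (0.33 and 0.36) in both libraries, that in ACF1 (0.37 and 0.50) likewise, and that in GAL4-HP1 (0.35 and −0.16) was not. No p is given for these, since the exact permutation test over 2 and 2 libraries could not pass a threshold whatever the values. Whether the arms differ in their response was therefore not settled.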

How the data were processed

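Reporter barcodes were sequenced from cDNA and gDNA of sorted Kc167 cells, in 16 libraries of 4 conditions with 2 replicates each. The deposited counts are raw barcode reads per reporter, and the counting tool is not given in the sources used here. No molecular identifiers are described, so intervals and floors hold for counting error only. Expression was deposited as a ratio, the cDNA count over the gDNA count, which the authors multiplied by 1 factor per library. That factor includes a scaling to a spike-in pool (2.5% of cells), whose counts were not analysed here. Positions are those of dm3, the build named in the submitters' processing notes. Of the 18 samples in the labels, the libraries for mapping and for the spike-in were not used.

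Fold changes are log2 ratios of mean deposited expression over both replicates, with no pseudocount, for the 642 reporters above 0 on the mean in every condition. This is how the study's rule of discarding reporters at 0 in a condition was read. Fold changes of a single replicate also leave out reporters at 0 in either library compared. Differences between replicates, also those between arms, therefore include a change in the set of reporters. Counts were tested with edgeR 4.0.16 (glmQLFit and glmQLFTest, R 4.3.3), with 8 groups over 16 libraries, a common dispersion of 0.358, two-sided, and Benjamini-Hochberg adjustment over 642 reporters. Zero shares have Wilson intervals at 95%. DESeq2 1.42.0 and the other alternatives are reported in the closing section. On simulated data with known changes most changed reporters did not pass this test, so the lack of a call does not show the lack of a change. Depth was 2616438 to 4181903 counts per cDNA library and 1535023 to 2860908 per gDNA library.

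Named reporters are the members past the count test and changed the same way in both replicates (up to 12 by smallest p), the 5 highest and 5 lowest in GAL4 (above 0 in both libraries), those next to the position limit (3 on each side), the 3 closest pairs, those at 0 in both GAL4-ACF1 libraries with at least 50 counts in each GAL4 library (up to 5), the 3 with the largest rise in GAL4-ACF1 (at least 50 counts in each library of the 2 conditions), and the member with the largest cDNA share. Members were defined by position alone, and the lists and rules, that one included, were set with earlier results of these data known.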

Additional observations from a re-analysis of the deposited data

How the results depend on the processing

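With 2 libraries per condition, a spread of over 1 log2 unit between replicates of single reporters limits what the counts can resolve. The authors' spike-in factor was taken as deposited, and it sets the size of all fold changes on the deposited scale. Settings that leave out 2L or the 1.5 Mb next to the centromere were chosen after seeing the data.

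The medians on 3R kept their sign in the alternatives run on deposited expression. The fitted medians of the count model did not all do so, since with median-of-ratios size factors those of ACF1 over GAL4 (0.03), GAL4-HP1 over GAL4 (0.001) and GAL4-ACF1 over ACF1 (0.07) were above 0, as was that of GAL4-HP1 over GAL4 with TMM factors (0.01). The GAL4-ACF1 median was −1.02 for members above 0 in every cDNA library, −0.99 with at least 10 counts in every library, and −1.66 with zeros ranked lowest (single replicates −1.55 to −1.20). The ACF1 median was −0.66 under scaling to library totals and −0.17 without division by gDNA (−0.44 to −0.20). The GAL4-HP1 median was −0.65 under scaling to library totals (−2.05 to −1.14). The difference of 3R from the other large arms ran over single replicates from −0.19 to 0.071 (GAL4-ACF1), from 0.025 to 0.19 (ACF1) and from −0.20 to 0.064 (GAL4-HP1). For GAL4 expression it was 0.30 above 0 in every cDNA library, 0.35 with at least 10 counts, 0.24 for the mean of log2 values, 0.074 without division by gDNA, 0.23 against arms without the 1.5 Mb next to the centromere and 0.042 without 2L (0.33 to 0.36). The rank correlation of the GAL4-ACF1 fold change with position was 0.055 above 0 in every cDNA library, 0.11 with at least 10 counts, 0.060 with zeros ranked lowest, 0.074 for the mean of log2 values, 0.051 without division by gDNA and −0.0085 over all of chr3R (0.035 to 0.039). That of GAL4 expression was 0.017 above 0 in every cDNA library, 0.070 with at least 10 counts, 0.048 without division by gDNA and −0.038 over all of chr3R (−0.017 to −0.0071).

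Counts of members past the threshold moved as follows. For GAL4-ACF1 over GAL4 there were 18 without the filter (10.8%, against 12.4% of all reporters) and 29 with DESeq2 (19.7%, against 17.4%), and 1 to 27 with the cDNA and gDNA of a replicate left out (0.680% to 18.4%, against 0.156% to 15.6%). For ACF1 over GAL4 there were 0 with TMM, median-of-ratios, the authors' scaling or cDNA alone. Without the filter there were 3 (1.81%, against 1.34% of all reporters) and with DESeq2 4 (2.72%, against 2.65%, with no adjusted p for 187 of 642 reporters). For GAL4-HP1 over GAL4 there were 0 with the authors' scaling, 2 with cDNA alone (1.36%, against 0.779%) and 9 with DESeq2 (6.12%, against 2.65%). For GAL4-ACF1 over ACF1 there were 2 with the authors' scaling (1.36%, against 0.623%), 2 without the filter (1.20%, against 0.668%) and 8 with DESeq2 (5.44%, against 3.89%). In each of these comparisons the count also moved with a replicate left out, which leaves a single library in a group. The cause of these shifts was not tested.

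Replicate numbers are shared by the conditions, but nothing says that they mark a common batch. Differences between replicates 1 and 2 correlated between conditions with r from 0.037 to 0.15 in cDNA and −0.024 to 0.029 in gDNA (497 reporters). With the replicate number as a block, 11 members passed for GAL4-ACF1 over GAL4 (7.48%, against 7.32% of all reporters). For ACF1 over GAL4 2 passed (1.36%, against 0.623%) and for GAL4-HP1 over GAL4 3 (2.04%, against 0.623%). For GAL4-ACF1 over ACF1 1 passed (0.680%, against 0.156%). With cDNA and gDNA of the same culture as a block these counts were 2 (1.36%, against 1.25%), 0, 0 and 0 (each against 0%). The blocked medians were −1.17, −0.39 and −1.54, and the blocked rank correlation with position was 0.074. Leaving out a replicate number in all conditions at once leaves no residual degrees of freedom for the count test, so that alternative was not run.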
